A study of Mus musculus with 6 samples.

Results

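The genes of glycolysis and of the pentose phosphate pathway were followed in T cells that lacked CTLA-4 and in wild-type T cells, after both had responded to antigen in mice. The list held 34 genes: glucose carriers, the enzymes that turn glucose into pyruvate and lactate, carriers of the lactate family, the pyruvate dehydrogenase gate, the pentose branch and the transcription factor Hif1a. Each gene was read by the brightest of the probe sets that the array annotation gives to that gene alone, taken as the mean over the 6 arrays. In this way 31 of the 34 genes had a probe set, and Gpi1, Eno1 and G6pdx had none here. Gapdh was read by control probe sets alone, and Slc16a3 was too dim to test, so 29 of 11988 tested genes belonged to the list.

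Donor T cells carried the 5C.C7 receptor transgene, which recognises a peptide of moth cytochrome c (MCC), together with CD45.1, and all donors lacked RAG2 (RAG2-/-), so that no other antigen receptor could be rearranged. The tested donors were also CTLA-4-/- (CTLA-4 KO, 3 arrays), and the others were wild type for CTLA-4 (3 arrays). CTLA-4 restrains T cells after activation and takes the costimulatory ligands of CD28 for itself. The labels give B10.A as strain of the recipients and as background, and no age. Cells of both genotypes were transferred, the hosts received MCC peptide with LPS, a bacterial activator of innate cells, and donor cells were recovered by sorting after 4 days. Each array was made from 2 µg of total RNA. The recipients kept their own T cells, and whether each array came from 1 animal or from a pool is not stated.

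Glucose enters a T cell through carriers of the Slc2a family and is phosphorylated by hexokinase, which traps it in the cell. The upper part of glycolysis spends energy to split the sugar, and the lower part recovers energy on the way to pyruvate. Activated T cells turn much of this pyruvate into lactate, which leaves the cell with a proton through Slc16a carriers, while the rest enters mitochondria through pyruvate dehydrogenase. The pentose branch leaves after the first step and yields NADPH and ribose for nucleotides. In T cells CD28 costimulation is known to raise glucose uptake and glycolysis, and Hif1a and Myc are known activators of these genes.

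Ctla4 itself had an intensity of 812, 791 and 784 in CTLA-4 KO arrays, against 5332, 4787 and 4587 in wild-type arrays, a log2 difference of -2.60 ± 0.10 (SE, limma adjusted p = 1.53e-06). An exact permutation test of its group means, two-sided, gave p = 0.1, the smallest that 3 arrays against 3 allow. Of the T cell markers 9 of 10 were read, all above the floor of the test, and their summed intensity was 85588 to 93231 in CTLA-4 KO and 87819 to 100032 in wild type. None of the 9 passed, but 2 fell in a fit with the replicate number as a block, each with all CTLA-4 KO arrays below wild type. Cd28, the costimulatory receptor, had 9506, 9685 and 9226 in CTLA-4 KO, against 11626, 11698 and 12569 in wild type (difference -0.34, adjusted p = 0.0718, and 0.0295 with the block). Cd3g, a chain of the T cell receptor complex, had 6083, 6367 and 6331 in CTLA-4 KO, against 7162, 7886 and 9014 in wild type (difference -0.35, adjusted p = 0.121, and 0.0293 with the block). Markers of B cells (2 of 7 above the floor, sum 134 to 320.3 in CTLA-4 KO and 244 to 451 in wild type), myeloid cells (5 of 8, sum 394 to 596 and 435 to 470.2), dendritic cells (3 of 5, sum 158 to 205 and 208 to 297), NK cells (0 of 3) and erythroid cells (0 of 2) were dim. The CD8 T cell markers Cd8a and Cd8b1 were both above the floor, and neither passed without or with the block. Their sum was 315 to 513 in CTLA-4 KO and 262 to 422 in wild type. None of the measured members lies on chromosome 1, where Ctla4 lies. Replicate 2 of both genotypes had high Xist (12599 in CTLA-4 KO and 14608 in wild type, at most 107 in the other arrays), so arrays of equal replicate number matched in this transcript of female cells. As the cells were sorted in bulk, more cells with a transcript and more transcript per cell cannot be told apart.

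Most of these genes read higher without CTLA-4, by modest amounts. Of the 29 tested members 23 had a positive log2 difference (CTLA-4 KO minus wild type, on log2(intensity + 16)), against 50.3% of all tested genes. The median difference was 0.23, against 0.0021 over all genes. In 14 members every CTLA-4 KO array lay above every wild-type array, against 12.2% of all genes, and in 1 member, Ldhb, every CTLA-4 KO array lay below, against 10.5%. At an adjusted p of 0.05 in the limma fit 2 members rose, Slc16a5 and Tpi1, and none fell, against 1.23% of all genes higher and 0.517% lower. With the replicate number as a block, which compares arrays within each pair, 10 members rose and none fell, against 5.46% higher and 3.45% lower. The 10 were Slc16a5, Tpi1, Slc16a1, Aldoa, Pgam1, Pgk1, Pfkp, Pkm, Ldha and Hk2.

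Of those 10 genes 2 passed without the block, and the others passed with it alone. The promoters of 4 of the 10 are shown so that the sequence can be set beside the values. The sequences are from RefSeq (GRCm38.p6, which the array files do not name) and span 250 bases before to 50 after a transcript start, written 5′ to 3′ along the gene. Capitals mark ACGTG on either strand, a core that HIF-1 can bind. The longer CACGTG, which Myc family factors can bind, holds one on each strand.
Pgk1, chrX:106186850-106187149, plus strand: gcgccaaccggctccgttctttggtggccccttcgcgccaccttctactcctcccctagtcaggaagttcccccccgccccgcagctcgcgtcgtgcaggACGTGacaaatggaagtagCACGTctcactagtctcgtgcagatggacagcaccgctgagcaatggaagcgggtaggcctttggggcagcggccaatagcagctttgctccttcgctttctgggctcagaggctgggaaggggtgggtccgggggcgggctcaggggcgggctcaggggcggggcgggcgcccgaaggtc
Ldha, chr7:46845554-46845853, plus strand: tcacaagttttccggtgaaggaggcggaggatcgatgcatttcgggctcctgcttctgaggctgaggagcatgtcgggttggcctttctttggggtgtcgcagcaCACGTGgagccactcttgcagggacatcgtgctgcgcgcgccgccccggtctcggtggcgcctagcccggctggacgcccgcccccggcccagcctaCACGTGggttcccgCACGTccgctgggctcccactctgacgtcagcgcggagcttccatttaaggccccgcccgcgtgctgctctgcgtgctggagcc
Pgam1, chr19:41911621-41911920, plus strand: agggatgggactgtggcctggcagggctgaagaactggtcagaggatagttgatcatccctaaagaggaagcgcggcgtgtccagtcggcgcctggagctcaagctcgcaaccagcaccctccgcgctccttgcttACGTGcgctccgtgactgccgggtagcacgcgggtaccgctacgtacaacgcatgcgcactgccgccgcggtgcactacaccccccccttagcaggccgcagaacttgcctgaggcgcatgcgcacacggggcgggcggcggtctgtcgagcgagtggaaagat
Tpi1, chr6:124814109-124814408, minus strand: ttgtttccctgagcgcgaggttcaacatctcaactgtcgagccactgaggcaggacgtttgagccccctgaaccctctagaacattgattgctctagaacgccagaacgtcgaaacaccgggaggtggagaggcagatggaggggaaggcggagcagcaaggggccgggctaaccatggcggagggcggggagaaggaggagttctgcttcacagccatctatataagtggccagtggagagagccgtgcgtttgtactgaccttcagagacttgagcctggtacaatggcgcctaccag
Ldha has 5 such matches in this window, 4 of them from 2 CACGTG, Pgk1 has 2 and Pgam1 has 1, while the Tpi1 window holds none. Ldha has another listed start without a match. A start was listed for 32 members, and 17 of them (53.1%) had ACGTG in at least 1 window, against 21.8% of 27025 genes. Counted by window, ACGTG was in 43.5% of 46 member windows, against 19.6% of 32851. CACGTG was found for 5 members (15.6%), against 8.09% of genes. The shares over all genes cover every gene with a listed start, tested here or not, and base composition was not matched. Among the 10 genes above 9 had a listed start and 7 of these had ACGTG, as did 7 of 18 other tested members. Of the 2 that passed without the block, Tpi1 has no match and Slc16a5 has no listed start. Whether matches go with the differences was not tested. These matches describe letters and are not evidence of binding.

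**Figure D1:**
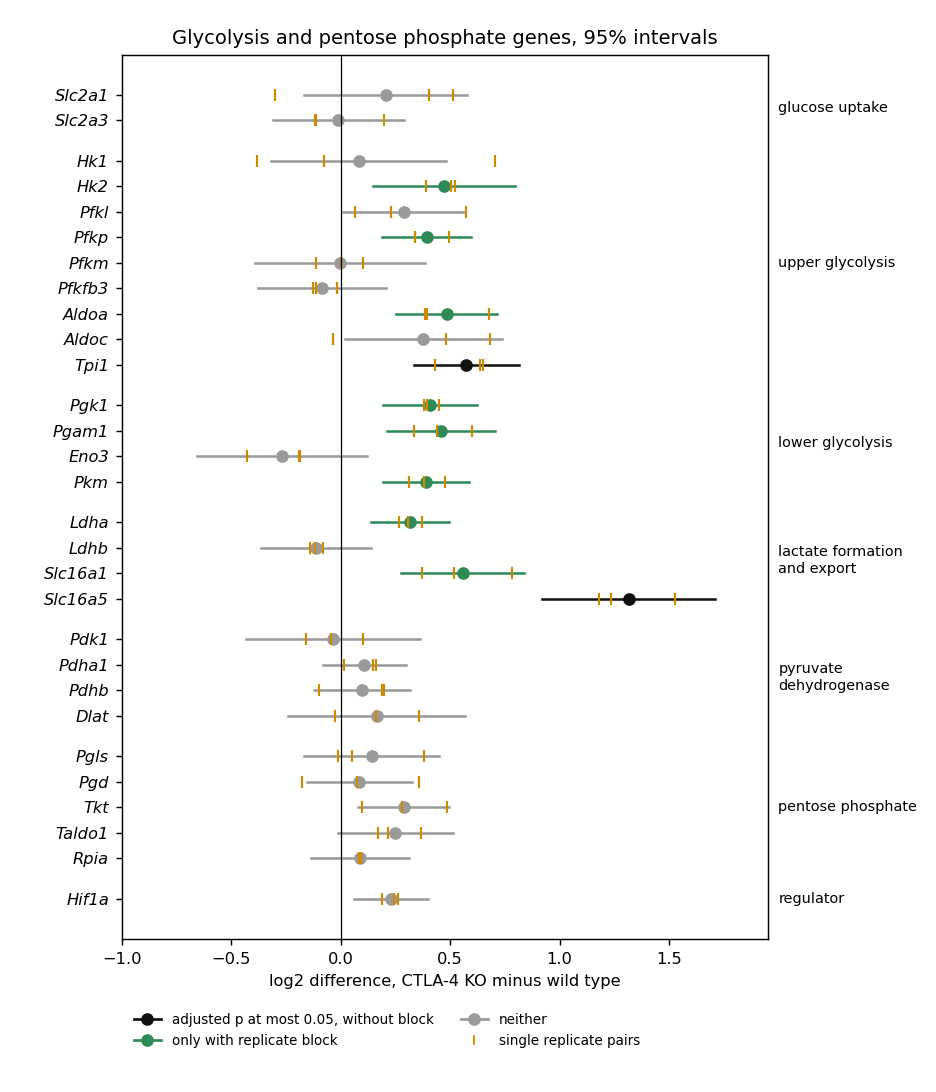
Log2 difference (CTLA-4 KO minus wild type, horizontal axis) of each of the 29 tested genes, by role, with the 95% interval of the limma fit as a line and the 3 single replicate pairs as ticks. Slc16a5 lies farthest right at 1.32, the glycolytic enzymes cluster between -0.27 and 0.57, and the pyruvate dehydrogenase and pentose genes lie between -0.034 and 0.29.

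At the entry of glucose, neither carrier passed the test. Slc2a1, the main glucose carrier of activated T cells, had 1607, 1445 and 1573 in CTLA-4 KO arrays, against 1211, 1781 and 1097 in wild type. The groups overlap, because wild type replicate 2 was the highest array of all, and the difference was 0.21 ± 0.17 (SE, adjusted p = 0.603, 95% interval -0.17 to 0.58). It was 0.40 and 0.51 in pairs 1 and 3 and -0.30 in pair 2. The high-affinity carrier Slc2a3 had 1309.5, 1494 and 1108 in CTLA-4 KO, against 1418, 1298 and 1204 in wild type, a difference of -0.011 ± 0.14 (adjusted p = 0.979). Both genes thus had groups that overlap, and the interval of Slc2a1 reaches past the values of most enzymes that follow.

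In the upper part of glycolysis Tpi1 rose, and 3 more of 9 tested genes rose with the replicate block. Tpi1, the isomerase that interconverts the 2 triose phosphates, had 2714, 3139 and 2795 in CTLA-4 KO, against 2006, 2015 and 1773 in wild type. The groups did not overlap, and the difference was 0.57 ± 0.11 (adjusted p = 0.0356, and 0.00287 with the block). Its call was lost when any of the 6 arrays was left out (adjusted p 0.0597 to 0.196, differences 0.51 to 0.62).

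Aldoa, the aldolase that splits the sugar, had 9488, 10054 and 9559 in CTLA-4 KO, against 7224, 7700.4 and 5973 in wild type. All CTLA-4 KO arrays were higher, with a difference of 0.48 ± 0.10 (adjusted p = 0.0548, and 0.00718 with the block). Hk2, the inducible hexokinase, had 588, 473 and 518 in CTLA-4 KO and 410.3, 357 and 356 in wild type, a difference of 0.47 ± 0.15 (adjusted p = 0.153, and 0.0352 with the block). Pfkp, a phosphofructokinase of the committed step, had 6112, 6215 and 6018 in CTLA-4 KO, against 4824, 4900.2 and 4266 in wild type, a difference of 0.39 ± 0.09 (adjusted p = 0.0699, and 0.0151 with the block). The 3 genes had CTLA-4 KO arrays above wild type throughout, at 1.41, 1.39 and 1.31 times the wild-type mean for Hk2, Aldoa and Pfkp.

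Isoforms of the same steps gave other values. Hk1, the constitutive hexokinase, had 3314, 4251 and 3056 in CTLA-4 KO and 4324, 2598 and 3219 in wild type, with pair differences of -0.38, 0.71 and -0.075 and no common direction (adjusted p = 0.865). The muscle-type phosphofructokinase Pfkm had 373 ± 42.6 in CTLA-4 KO and 376 ± 71.8 in wild type (mean ± SD, n = 3 arrays, difference -0.0019, 95% interval -0.39 to 0.39, adjusted p = 0.997). The liver-type Pfkl had 1349 ± 160.2 and 1098 ± 71.4, with all CTLA-4 KO arrays above, and a difference of 0.29 ± 0.13 (adjusted p = 0.3). Aldoc had 456, 592 and 652 in CTLA-4 KO, against 468, 419 and 399.7 in wild type, where replicate 1 of CTLA-4 KO falls among the wild-type values (difference 0.38 ± 0.16, adjusted p = 0.295). Pfkfb3, which makes an activator of phosphofructokinase, had 788 ± 85.8 in CTLA-4 KO and 835 ± 60.2 in wild type (difference -0.085 ± 0.13, adjusted p = 0.802). Whether isoforms of a step differ from each other in their response was not tested.

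The lower part of glycolysis held 3 genes with nearly the same difference. Pgk1, the kinase of the first energy-yielding step, had 14208, 15489.8 and 16554 in CTLA-4 KO, against 10395, 11910.2 and 12588 in wild type. The groups did not overlap and the pairs gave 0.45, 0.38 and 0.39 (difference 0.41 ± 0.10, adjusted p = 0.0726, and 0.0108 with the block). Pgam1, the mutase that follows, had 3420.3, 3350.3 and 3202 in CTLA-4 KO, against 2519, 2654 and 2109 in wild type, a difference of 0.46 ± 0.11 (adjusted p = 0.0783, and 0.00991 with the block). Pkm, the pyruvate kinase of proliferating cells, had 6749, 6629 and 6518 in CTLA-4 KO, against 5435, 4759 and 5005 in wild type, a difference of 0.39 ± 0.09 (adjusted p = 0.0663, and 0.0152 with the block). For all 3 genes the lowest CTLA-4 KO array exceeded the highest wild-type array, and each passed with the block but not without it.

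The muscle enolase Eno3 went the other way, at 353, 255 and 273 in CTLA-4 KO and 405, 348 and 312 in wild type, with negative pairs throughout and overlapping groups (difference -0.27 ± 0.18, adjusted p = 0.51). Gapdh, the dehydrogenase between Tpi1 and Pgk1, was read by 3 control probe sets along its transcript. At the 3′ end it had 17081, 14248 and 17039.5 in CTLA-4 KO and 14059.7, 15148 and 13671 in wild type, with overlap (difference 0.17 ± 0.09, adjusted p = 0.422 in a limma fit that kept these probe sets). In the middle of the transcript it had 8412, 8965 and 9560.5 in CTLA-4 KO, against 6230.4, 6123 and 8124 in wild type, with no overlap (0.41 ± 0.12, adjusted p = 0.127, and 0.0167 with the block). At the 5′ end it had 1866, 2921 and 3038 in CTLA-4 KO and 1442, 1447 and 3424 in wild type, with overlap. Gapdh there had a difference of 0.40 ± 0.30 (adjusted p = 0.573, and 0.156 with the block). The ratio of its 5′ to its 3′ signal, a sign of RNA integrity, was 0.109, 0.205 and 0.178 in CTLA-4 KO and 0.103, 0.0955 and 0.25 in wild type. The reading of Gapdh thus depends on which stretch of the transcript is taken, and the part of RNA integrity in it was not tested.

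Of the 4 tested genes of lactate formation and of its carrier family 1 rose, and 3 rose with the block. Slc16a5 had 333, 341 and 371 in CTLA-4 KO, against 132, 108 and 155 in wild type, 2.65 times the wild-type mean. The groups lay far apart, and the difference was 1.32 ± 0.18 (95% interval 0.92 to 1.71, adjusted p = 0.0105, and 0.000641 with the block). Slc16a5 belongs to the monocarboxylate carriers by sequence, but its human counterpart is known as a carrier of drugs rather than of lactate. It stood 48th of 27022 probe sets by p, and its call was lost without CTLA-4 KO replicate 2 (adjusted p = 0.0550, difference 1.33).

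Slc16a1, the proton-coupled lactate carrier of activated T cells, had 1559.9, 1789 and 1698 in CTLA-4 KO, against 1203, 1245 and 981 in wild type. All CTLA-4 KO arrays were higher, by 0.56 ± 0.13 (adjusted p = 0.0656, and 0.0077 with the block). Ldha, the lactate dehydrogenase subunit that favours lactate formation, had 13718, 12292 and 12993 in CTLA-4 KO, against 10582, 10209 and 10480.3 in wild type, a difference of 0.32 ± 0.08 (adjusted p = 0.0882, and 0.0341 with the block). The subunit of the opposite preference, Ldhb, had 848, 858 and 832 in CTLA-4 KO, against 899, 946 and 903 in wild type, so that all CTLA-4 KO arrays were lower, by a small amount that did not pass (difference -0.11 ± 0.11, adjusted p = 0.687, and 0.562 with the block). The lactate exporter of strongly glycolytic cells, Slc16a3, was near background at 24.6, 3.42 and 18.9 in CTLA-4 KO and 6.02, 30.3 and 9.25 in wild type.

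**Figure D2:**
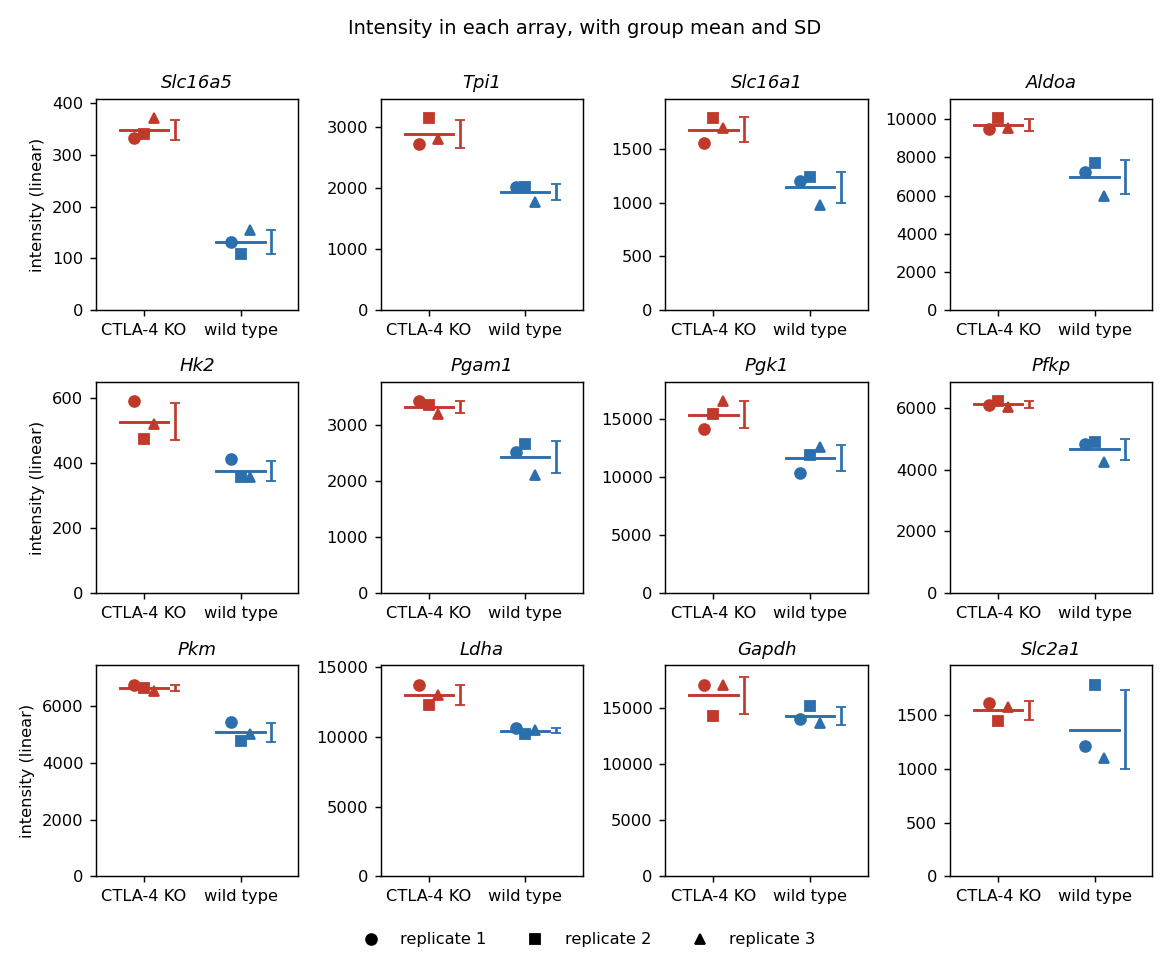
Intensity (vertical axis, linear, from 0) in each array for the 10 genes that rose without or with the replicate block, for Gapdh (3′ control probe set) and for Slc2a1, with CTLA-4 KO on the left, wild type on the right, bars at the means and SD beside them (n = 3 arrays). The groups do not overlap in the 10 genes, and overlap in Gapdh and Slc2a1, where wild type replicate 2 is at 1781.

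At the mitochondrial gate no gene passed either test. Pdk1, the kinase that switches off pyruvate dehydrogenase and a known HIF-1 target, had 5138, 6627 and 7155 in CTLA-4 KO and 4787, 6839 and 7988 in wild type, where both groups span the same range (difference -0.034 ± 0.18, adjusted p = 0.951). The subunits of the complex were close between genotypes, with Pdha1 at 5207 ± 191 and 4829 ± 91, Pdhb at 5579 ± 577 and 5194 ± 59.6 and Dlat at 761 ± 116 and 684 ± 151 (CTLA-4 KO and wild type, mean ± SD, n = 3 arrays). Their differences were 0.11, 0.10 and 0.16, with adjusted p between 0.595 and 0.717. The arrays of Pdha1 did not overlap between genotypes, and those of the other genes did.

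The 5 measured genes of the pentose branch all had positive differences, and none passed the test on its brightest probe set, without or with the block. With all probe sets of a gene averaged Tkt rose, by 0.47 (adjusted p = 0.0322). Tkt, the transketolase that joins the branch back to glycolysis, had 17583, 15505 and 17029 in CTLA-4 KO, against 14469.9, 14466 and 12166 in wild type. It was the gene of the branch whose groups did not overlap (difference 0.29 ± 0.09, adjusted p = 0.173, and 0.0789 with the block). Taldo1, the transaldolase of the same arm, had 8085, 7669 and 6868 in CTLA-4 KO and 6963, 6811 and 5326 in wild type, where the lowest CTLA-4 KO array lay among the wild-type values (0.25 ± 0.12, adjusted p = 0.344). The isomerase Rpia had 2564, 2828 and 2561 in CTLA-4 KO and 2415, 2651 and 2399.8 in wild type, with a small difference of 0.085, 0.092 and 0.093 in pairs 1, 2 and 3 (adjusted p = 0.719).

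In the oxidative arm, which makes NADPH, the dehydrogenase Pgd had 6311, 5835 and 6541 in CTLA-4 KO and 5988, 6595 and 5098 in wild type (0.086 ± 0.11, adjusted p = 0.753). The lactonase Pgls had 1036, 1137 and 1073 in CTLA-4 KO and 997, 1145 and 820.4 in wild type (0.14 ± 0.14, adjusted p = 0.677). For both genes pair 2 was negative and wild type replicate 3 was the lowest array.

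Hif1a had 12590.1, 12594 and 13282 in CTLA-4 KO, against 11045, 10643 and 11088 in wild type. The groups did not overlap, and the difference of 0.23 ± 0.08 did not pass (adjusted p = 0.18, and 0.109 with the block). The other tested probe sets of Hif1a had 0.18, 0.34 and -0.15, with overlapping groups. The factor is controlled mainly through protein breakdown, which arrays do not read.

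Set side by side, the branches differed in their medians. The median log2 difference was 0.098 for glucose uptake (2 genes), 0.38 for upper glycolysis (9), 0.40 for lower glycolysis (4), 0.44 for lactate formation and its carrier family (4), 0.10 for pyruvate dehydrogenase (4) and 0.14 for the pentose branch (5). In the single pairs 1, 2 and 3 it was 0.10, 0.38 and 0.52 for upper glycolysis, 0.38, 0.36 and 0.39 for lower glycolysis and 0.37, 0.39 and 0.55 for lactate. For the pentose branch it was 0.085, 0.092 and 0.37. Relative to the wild-type mean of each gene, the lower glycolysis median was 0.35, 0.40 and 0.38 in CTLA-4 KO arrays, against 0.081, 0.0086 and -0.092 in wild-type arrays, while glucose uptake had 0.14, 0.15 and 0.0020 in CTLA-4 KO and -0.0086, 0.20 and -0.20 in wild type. The lactate median includes Slc16a5 (1.32), and the other genes of that list had 0.56 (Slc16a1), 0.32 (Ldha) and -0.11 (Ldhb). Differences between branches were not tested.

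Some of these medians rest on 1 array. Without wild type replicate 3 the median was 0.13 for all members, 0.065 for the pentose branch and 7.2e-05 for glucose uptake. Without wild type replicate 2 it was 0.25 for the pentose branch and 0.20 for glucose uptake, and the glycolysis and lactate medians stayed between 0.27 and 0.46 whichever array was left out.

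**Figure D3:**
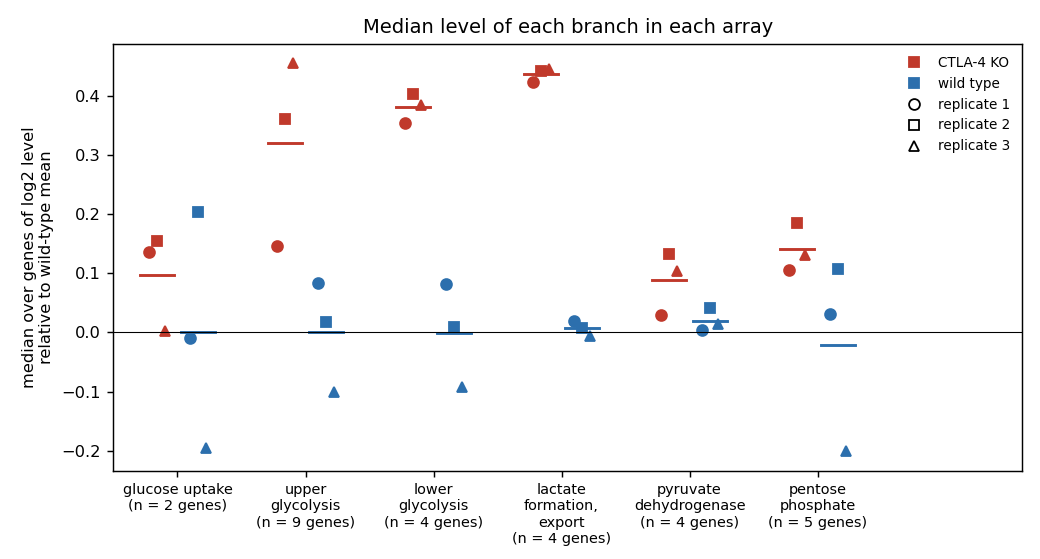
Median level of each branch in each array, as the median over its genes of log2(intensity + 16) minus that gene's wild-type mean (vertical axis), with CTLA-4 KO left of wild type and bars at the mean of 3 arrays. CTLA-4 KO and wild-type arrays separate for upper glycolysis, lower glycolysis and lactate, and overlap for glucose uptake, pyruvate dehydrogenase and the pentose branch.

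Other probe sets of the same genes gave a second reading. In all 73 probe sets read a single member, 3 of them controls, and 64 were tested. For 17 genes more than 1 probe set was tested, and 30 of the 35 probe sets beside the brightest had the same sign as the brightest. Of these 35, 5 rose and none fell, against 0.803% of all tested probe sets higher and 0.474% lower. Aldoa had 5 tested probe sets, of which 2 rose (differences 0.55 and 0.66, adjusted p = 0.0486 and 0.0149), and its dimmest had 0.086. The 2 further probe sets of Pgk1 both rose, by 0.42 and 0.74 (adjusted p = 0.0402 and 0.027), although its brightest did not pass. For Tpi1 1 of 2 further probe sets rose (0.62, adjusted p = 0.0487), and the other had 0.47 (adjusted p = 0.0745). Pfkp passed with the block on its brightest probe set alone. Its 2 further probe sets had 0.18 and 0.34, with overlapping groups (adjusted p = 0.765 and 0.571, and 0.515 and 0.468 with the block).

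Probe sets disagreed in sign for Hk1, Pfkl, Ldhb, Pdhb and Hif1a, each with 1 opposite reading that did not pass. That of Pdhb was -0.47 (adjusted p = 0.353), with every CTLA-4 KO array below wild type. The other tested Ldhb probe sets had -0.27 and 0.031 with overlapping groups, and -0.21 with every CTLA-4 KO array below wild type. A dimmer probe set of Tkt had 0.73 (adjusted p = 0.0815, and 0.00264 with the block). The dimmest of 4 Pdk1 probe sets had 335 ± 45.8 in CTLA-4 KO and 498 ± 90.4 in wild type, a difference of -0.54 (adjusted p = 0.167, and 0.0500216 with the block, just over the threshold), against -0.034 for the brightest. The probe sets used for Aldoa, Tpi1, Pgk1, Pgd and Tkt are of the kind that the maker marks as able to bind similar transcripts, and processed copies of some of these genes exist.

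**Figure D4:**
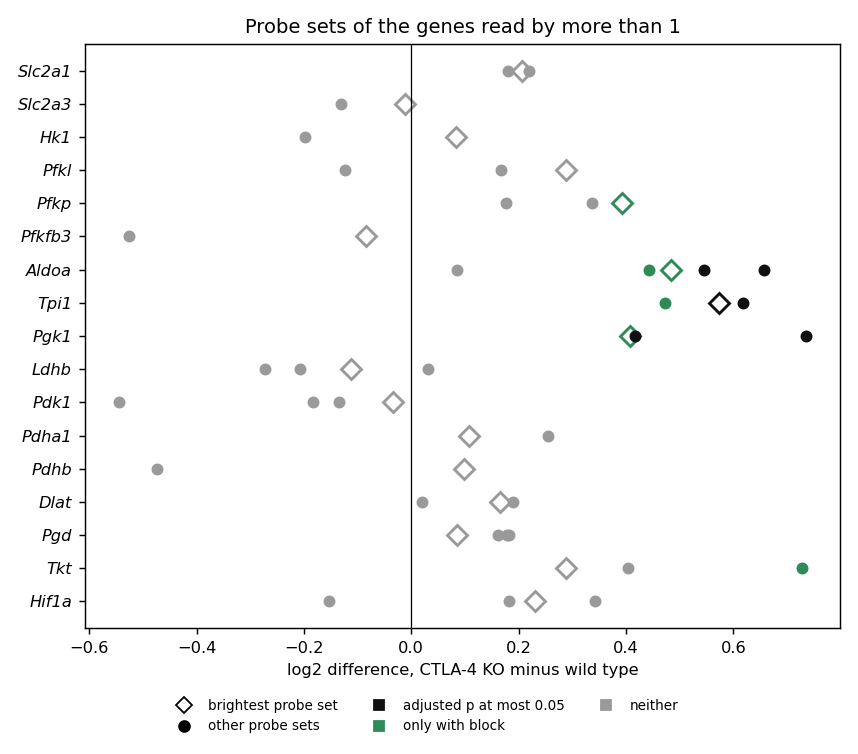
Log2 difference (CTLA-4 KO minus wild type) of every tested probe set for the 17 genes with more than 1, with the brightest as an open diamond and the others as dots. The readings of Aldoa, Tpi1 and Pgk1 lie at 0.086 to 0.74, and those of Pdk1 and Ldhb lie between -0.54 and 0.03.

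Other genes of the pathway, from lists chosen for this purpose, mostly did not pass. Of 20 tested further glycolysis genes none rose or fell, the median was 0.017, and with the block 1 fell, Txnip, which restrains glucose uptake (1430.1, 1804 and 2046 in CTLA-4 KO, against 1727, 2439 and 2788 in wild type, adjusted p = 0.0236 with the block and 0.354 without). The groups of Txnip overlap, but each pair was lower. Bsg, the chaperone that brings lactate carriers to the membrane, had 588, 590.2 and 589.6 in CTLA-4 KO, against 371, 503 and 454 in wild type (0.41 ± 0.15, adjusted p = 0.215). Slc16a6 had 286, 265 and 358 in CTLA-4 KO, against 204, 216 and 179 in wild type (0.56 ± 0.18, adjusted p = 0.157), and Hk3 had 67.8 ± 13.9 in CTLA-4 KO and 105 ± 19.5 in wild type (-0.53, adjusted p = 0.321).

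None of 7 further pyruvate entry genes and none of 7 further pentose genes passed without or with the block, with medians of 0.072 and -0.0025. Mpc1, a subunit of the mitochondrial pyruvate carrier, had 2135, 2139 and 1888 in CTLA-4 KO, against 1787, 1675 and 1587 in wild type (0.28 ± 0.11, adjusted p = 0.24), and the aldolase Dera had 2429 ± 91.9 and 2123 ± 144 (0.19, adjusted p = 0.4). Pdhx had a difference of 0.25 (adjusted p = 0.501) and Pdpr of -0.23 (0.642), and Shpk had -0.37 (0.602) and H6pd -0.15 (0.651).

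Of 22 tested genes of the hypoxia response, many of them HIF-1 targets, 1 rose and none fell, with a median of 0.022. Egln3, an oxygen sensor that marks HIF proteins for breakdown and is itself a HIF-1 target, had 2158, 2194 and 2305 in CTLA-4 KO, against 1109, 1372 and 1495 in wild type (0.75 ± 0.13, adjusted p = 0.0232, and 0.00103 with the block). Its call was lost without any 1 of the CTLA-4 KO arrays or without wild type replicate 2, and was kept without wild type replicate 1 or 3 (differences 0.63 to 0.84, adjusted p 0.0427 to 0.124). With the block Cited2 (0.47) and P4ha2 (1.01) rose as well, and Bnip3 (-0.66) fell. P4ha2 was dim, at 103, 108 and 110 in CTLA-4 KO and 27.9, 60.2 and 52.4 in wild type. The groups of Bnip3 overlap, at 146, 157 and 265 in CTLA-4 KO and 279, 255 and 371 in wild type. Ddit4, a stress-induced inhibitor of mTORC1 signalling, also rose with the block. Its groups overlap as well, at 1841, 2621 and 3282 in CTLA-4 KO and 702, 1736 and 3244 in wild type. Its pairs gave 1.37, 0.59 and 0.017 (difference 0.66, adjusted p = 0.504, and 0.0416 with the block), and its difference was -0.099 with the 5′ to 3′ ratio of Actb control, a sign of RNA integrity, as a term. Kdm3a had 2536 ± 51.1 in CTLA-4 KO and 3152 ± 257 in wild type (-0.31, adjusted p = 0.171), so the readings of this list went both ways, with 12 positive and 10 negative.

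Genes of dividing cells moved beside the glycolysis genes. Of 9 measured mitosis markers 5 rose, with a median of 1.06, and all 9 rose with the block. In each of the 9 every CTLA-4 KO array lay above every wild-type array, and their summed intensity was 14185 to 21528 in CTLA-4 KO, against 8571 to 10116 in wild type. Mki67, the proliferation marker, had 7854, 7868 and 5316 in CTLA-4 KO, against 3332, 3322 and 2826 in wild type (adjusted p = 0.00988). The part of cell division in the differences of glycolysis genes was not tested. The 5′ to 3′ ratio of the Actb controls, another sign of RNA integrity, was 0.567, 0.691 and 0.544 in CTLA-4 KO and 0.418, 0.41 and 0.584 in wild type. With this ratio as a term in the limma fit the median of the members was 0.35, and none of the 29 passed, against 0.1% of all genes. Slc16a5 then had a difference of 1.16 (adjusted p = 0.196) and Tpi1 of 0.61 (adjusted p = 0.251).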

How the data were processed

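Per the labels' protocols, biotin-labelled cRNA made from total RNA of sorted T cells was put on Affymetrix arrays. The table that the authors deposited holds linear intensity values for 45101 probe sets and 6 arrays, and the submitters' processing notes name MAS5 and Partek without versions. Each array had the same mean intensity, 500.003, after 2% was trimmed at both ends, so values are relative within an array. All per-sample columns were used.

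Intensities became log2(intensity + 16), which understates changes of dim genes. The 64 control probe sets were left out, and 27022 probe sets whose mean reached the 40th percentile (37.8) entered 1 linear model per probe set (limma 3.58.1, R 4.3.3, variance moderated along an intensity trend, 4 residual degrees of freedom). Two-sided p-values were adjusted by the Benjamini-Hochberg method across those probe sets, with a threshold of 0.05. The 4 residual degrees of freedom are those of the fit without the block. The fit with the block leaves fewer, so its calls lean more on the moderated variance. Precision is limited by 3 arrays in each group. The titles call the replicates biological and do not say whether each came from separate animals or a pool, so p-values reflect the spread between these arrays alone.

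Over these probe sets, arrays of equal replicate number deviated together from their group means (r = 0.37, 0.234 and 0.25 for numbers 1, 2 and 3). For this reason the numbers in the titles were taken to pair the arrays. The titles do not state a pairing, it was taken from these same data, and arrays of unequal number were not compared in this way. The fit with this block is given where it changes a call on a gene or list described here. The annotation gave 1 gene for 34958 probe sets, several for 932 and none for 9211. The symbols of 34754 were updated through RefSeq, and the table named no build for the arrays. All 34 members, Ctla4, Mki67 and, from each other pathway list, genes past the threshold plus up to 3 with the smallest p were to be named. Cd28, Cd3g, Cited2, P4ha2, Ddit4, Bnip3 and others that pass only with the block were named after their values were seen. Members, lists, tests and alternatives were chosen with earlier results of these data known.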

Additional observations from a re-analysis of the deposited data

How the results depend on the processing

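The log2 differences of Slc16a5 and Tpi1 stayed positive in all 21 refits (1.08 to 1.43 and 0.51 to 0.66), and Ctla4 passed in all of them. Slc16a5 passed in 17 and Tpi1 in 11. The number of changed members, 2 here, was 1 with no filter on dim probe sets, 5 with a 60th percentile filter, with array weights or with the Gapdh ratio as a term, 9 with all probe sets of a gene averaged or a threshold of 0.10, 10 with the replicate block, and 0 without the intensity trend, in replicates 1 and 3 only or with the Actb ratio as a term. It was 0 to 1 when 1 array was left out, and 0 without CTLA-4 KO replicate 2. Keeping the Gapdh controls in, an alternative added after seeing the data, left it at 2.

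Changed probe sets numbered 345 (217 higher and 128 lower, 62.9% higher), against 298 under median centring (244 higher and 54 lower, 81.9% higher), 111 with no filter, 479 with the 60th percentile filter, 533 with array weights, 2337 with the replicate block (1041 higher and 1296 lower, 44.5% higher), 21 without the trend, 47 in replicates 1 and 3 (53.2% higher), 22 with the Actb term (9 higher and 13 lower, 40.9% higher), 841 at 0.10 and 44 to 221 with 1 array left out. Changed genes of the other pathway lists numbered 1, against 0 with no filter, without the trend, in replicates 1 and 3 or with the Actb term, 2 with the 60th percentile filter, array weights, the Gapdh term or probe sets averaged, 9 with the replicate block and 0 to 1 with 1 array left out.

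The median of all members became 0.32 under median centring, which moved the median of all genes to 0.09, 0.35 with the Actb term and 0.13 to 0.30 with 1 array left out. The lactate median became 0.53 under median centring, 0.41 after quantile normalization, 0.46 in replicates 1 and 3, 0.51 and 0.45 with the Actb and the Gapdh ratio as a term and 0.39 to 0.46 with 1 array left out. Lower glycolysis became 0.49 under median centring, the pentose branch 0.31 with the Actb term, and pyruvate dehydrogenase 0.19 under median centring, 0.061 after quantile normalization and -0.032 with probe sets averaged. The ranges with 1 array left out were 0.27 to 0.42 for upper glycolysis, 0.37 to 0.41 for lower glycolysis, 0.065 to 0.25 for the pentose branch, 0.075 to 0.11 for pyruvate dehydrogenase and 7.2e-05 to 0.20 for glucose uptake.

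Among the members, signs turned only for genes that passed in no fit. Outside them, Ddit4, which rose with the block, had -0.099 with the Actb term. Hk1 had -0.23 in replicates 1 and 3, -0.046 with the Actb term and -0.057 with probe sets averaged, and Pdhb had -0.19 with that average. Pdk1 (0.055), Pfkfb3 (0.0043), Pfkm (0.087) and Slc2a3 (0.078) turned positive under median centring, and Pfkm (0.049) and Slc2a3 (0.0037) after quantile normalization. Slc2a3 also did so with array weights (0.035) and the Gapdh term (0.0055). With 1 array left out Hk1 ranged over -0.090 to 0.28, Dlat over -0.026 to 0.28, Pdk1 over -0.24 to 0.13, Pfkm over -0.14 to 0.13, Pgd over -0.014 to 0.17 and Slc2a3 over -0.11 to 0.10. The causes were not tested. Dim genes such as Slc16a3 are limited by signal near background.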

Other observations

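Genes that meet glycolysis from other pathways were read in 3 further lists. Of 22 tested genes of the tricarboxylic acid cycle and of enzymes beside it none passed. Their median was 0.14, and 18 had positive differences, against 50.3% of all tested genes. With the replicate block 2 of the 22 rose, against 5.46% of all genes. Idh3a, a subunit of the cycle's isocitrate dehydrogenase, had 3800.5, 3529 and 3257 in CTLA-4 KO, against 3072, 2577 and 2762 in wild type. Its limma adjusted p was 0.17, and 0.0376 with the block. Idh1, a cytosolic relative outside the cycle, had 585, 506 and 523 in CTLA-4 KO, against 482, 318 and 327 in wild type. For Idh1 the limma adjusted p was 0.191, and 0.0302 with the block. Neither gene's groups overlapped. Ogdh had 1429 ± 55.7 in CTLA-4 KO and 1149 ± 119 in wild type (mean ± SD, n = 3 arrays, adjusted p = 0.233).

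Of 8 genes of the shuttles that carry reducing equivalents into mitochondria none passed without or with the block (median 0.13), with Gpd2 at 0.37 (adjusted p = 0.275), Gpd1l at 0.22 (0.383) and Slc25a12 at 0.15 (0.507). Of 10 genes of glycogen and hexosamine metabolism none passed, and 1 rose with the block. Pygb, a glycogen phosphorylase, had 2867, 2714 and 2757 in CTLA-4 KO, against 2132, 2125 and 1686 in wild type, a log2 difference of 0.49 ± 0.12 (limma adjusted p = 0.0726, and 0.00956 with the block). Its groups did not overlap, while Ugdh (-0.15, adjusted p = 0.626) and Pgm3 (-0.25, 0.633) had lower means in CTLA-4 KO.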
